A study of Homo sapiens with 14 samples.

Results

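Genes by which an epithelial-mesenchymal transition is usually followed, 10 in all, were read in every library of the series: the transcription factor genes SNAI1, SNAI2, TWIST1, TWIST2, ZEB1 and ZEB2, the mesenchymal markers VIM and FN1, and the cadherins CDH1 and CDH2. They were chosen by name, 10 of the 27543 named loci of the expression table, each at a locus that carries its name alone. RNA was sequenced from MCF-10A, an immortalised, non-tumorigenic human mammary epithelial cell line, on day 2 after retroviral infection, and levels are given as FPKM, which scale the fragments of a gene by its length and by the library. The 14 libraries form 7 groups of 2, and every group carries a retroviral construct. The controls carry an empty pMSCV vector, called the Hygro vector or the Puro vector. YAP 5SA is a hyperactive form of YAP, a coactivator of the TEAD transcription factors. MRTFB is a coactivator of the transcription factor SRF that G-actin holds inactive. All 4 MRTFB forms are MRTFB dN, which cannot bind G-actin: MRTFB dN itself, MRTFB dN dPY, in which YAP binding is lost as well, MRTFB dN Y305A, in which SRF binding is lost instead, and MRTFB dN Y305A/dPY, without either. The series asks how MRTFB acts on genes that YAP and TEAD control. The labels name neither the vector that carried each construct nor whether the replicates were separate cultures or the cells a pool or a clone, so p-values measure only the spread between these libraries.

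In a transition from the epithelial to the mesenchymal state, cells give up cell-cell junctions and take up a motile form. Factors of the SNAI, ZEB and TWIST families bind E-box sequences and are known to repress CDH1, the gene of E-cadherin, which joins epithelial cells at adherens junctions. VIM encodes the intermediate filament protein vimentin, FN1 the matrix glycoprotein fibronectin, and CDH2 encodes N-cadherin, the cadherin that often replaces E-cadherin in mesenchymal cells. MCF-10A is known to hold basal features and to express some mesenchymal genes at rest.

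VIM and FN1 gave the largest changes among the 10 genes, so the 250 bases before their annotated start are shown, from RefSeq on GRCh38.p14. The VIM stretch is chr10:17227991-17228240 on the plus strand and the FN1 stretch is chr2:215436069-215436318 on the minus strand. Capitals mark the GC box GGGCGG and, in FN1, the cyclic AMP response element TGACGTCA, both searched on either strand.
VIM: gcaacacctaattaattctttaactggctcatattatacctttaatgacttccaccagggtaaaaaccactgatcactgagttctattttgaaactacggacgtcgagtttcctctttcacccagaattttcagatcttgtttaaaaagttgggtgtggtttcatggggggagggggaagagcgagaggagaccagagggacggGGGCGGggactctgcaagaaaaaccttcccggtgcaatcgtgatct
FN1: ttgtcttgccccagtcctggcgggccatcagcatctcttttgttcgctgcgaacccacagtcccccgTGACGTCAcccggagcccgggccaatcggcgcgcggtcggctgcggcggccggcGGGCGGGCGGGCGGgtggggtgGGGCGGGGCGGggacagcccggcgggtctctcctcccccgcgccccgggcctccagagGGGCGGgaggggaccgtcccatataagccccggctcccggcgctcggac
The VIM stretch has a GC content of 46.0% and 1 GC box, at position -46 from the start. The FN1 stretch has a GC content of 76.4% and 6 GC boxes, of which some overlap each other, and its response element begins at -183 and overlaps none of them. Of 35116 human promoter windows of 300 bases (250 before and 50 after a start), 45.0% hold the GC box and 1.85% the response element. The table held windows for 6 of the 10 genes: VIM, FN1, ZEB1 (7 windows), ZEB2, TWIST2 and CDH2 (2 windows). The CArG box, the motif of SRF, was in 0 of these 13 windows, against 1.29% of all. GGAATG, the core of the TEAD motif, was in 1 of them, a ZEB1 window (14% of all windows). CACCTG, the E-box of SNAI and ZEB factors, was in 2 windows, both of ZEB1 (20.6% of all). A match describes the letters only, and its absence says nothing of a factor outside these windows.

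MCF-10A identity was checked by marker genes: of 8 basal mammary epithelial genes 7 stood at 1 FPKM or more in every library, with KRT5 between 554 and 5085 FPKM, and TP63 ranged from 0.545 to 10.4 FPKM. None of 6 endothelial and 6 renal packaging line markers reached 1 FPKM in any library. Of the leukocyte markers PTPRC and CD3E never reached 1 FPKM, but CD14 (1.31 to 149 FPKM) and CSF1R (2.20 to 42.0) stood above 1 FPKM in every library and LYZ reached 2.64. The summed leukocyte list was lowest in YAP 5SA, at 7.88 to 9.97 FPKM, and highest in MRTFB dN Y305A, at 62.4 to 161, and its part in the results was not tested. The introduced genes were visible: the FPKM of MKL2, the older symbol of MRTFB, ran from 165 to 610 where an MRTFB form was introduced and from 3.06 to 6.60 elsewhere, and YAP1 at 625 and 529 in YAP 5SA against 18.3 to 50.9 elsewhere. Absolute depth is unknown. Depth relative to Hygro vector replicate 1, estimated from the lowest values, ran from 0.31 in Puro vector replicate 1 to 1.39 in YAP 5SA replicate 1. Puro vector replicate 1 stood apart, with 58.8% of its FPKM in unnamed loci against 9.99% to 38.6% in the other 13 libraries. MRTFB dN dPY replicate 1 has no values over long runs of loci, 5257 in all, SNAI2 among them, so SNAI2 is missing there and rests on 1 library in that group.

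Tests were run with limma on log2(FPKM + 1) over the 13137 named loci that reached 1 FPKM in 2 libraries or more, with p-values adjusted over these loci by Benjamini-Hochberg (threshold 0.05). Of the 10 genes 7 passed this filter. SNAI1, ZEB1 and ZEB2 did not and were not tested. Changes below are log2 fold changes of FPKM + 1 with their SE, each group with n = 2 libraries.

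**Figure D1:**
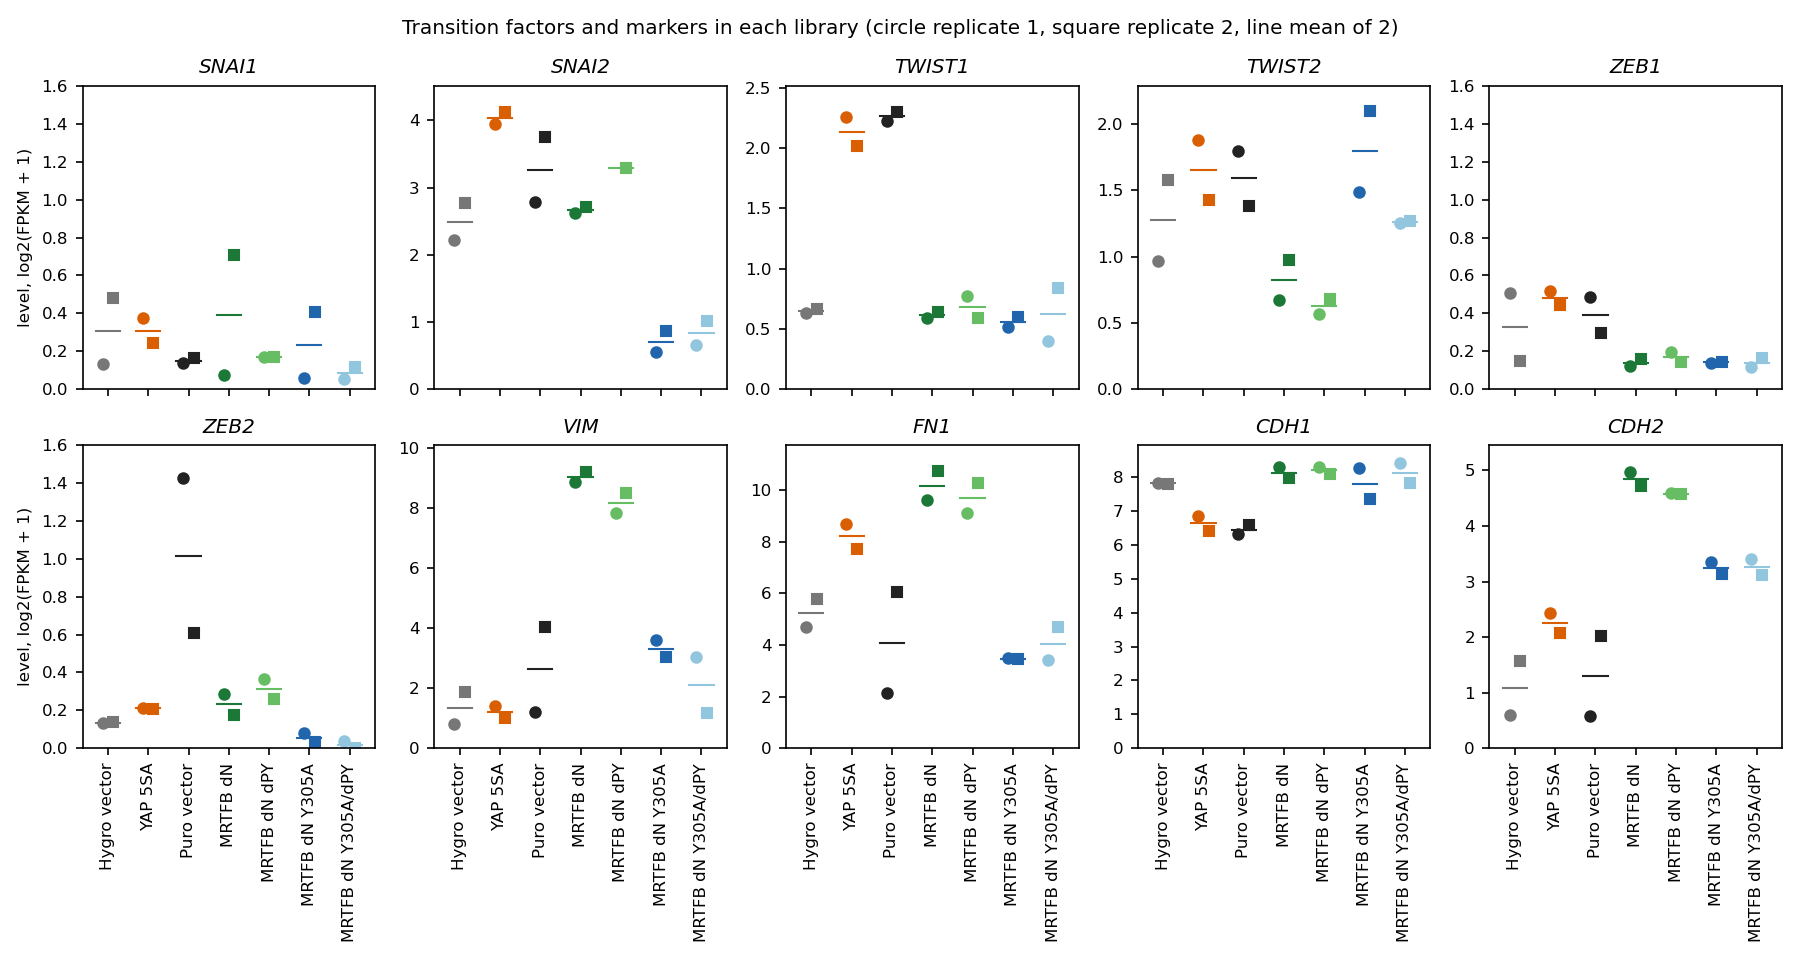
Level of each of the 10 genes, log2(FPKM + 1), in the 7 groups. Circles are replicate 1, squares replicate 2 and lines the mean of the libraries present; each panel has its own vertical axis from 0. VIM and FN1 are highest in MRTFB dN and MRTFB dN dPY, SNAI2 is lowest in the Y305A forms, and TWIST1 is high in YAP 5SA and the Puro vector only.

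SNAI2, the gene of the repressor Slug, was the transition factor with the highest level. It stood at 3.63 and 5.82 FPKM in the Hygro vector and at 14.5 and 16.4 in YAP 5SA. It was at 5.87 and 12.5 in the Puro vector, at 5.18 and 5.54 in MRTFB dN, and at 8.84 in the readable library of MRTFB dN dPY. The Y305A form had 0.464 and 0.817 FPKM and the Y305A/dPY form 0.582 and 1.01. The 4 libraries of the Y305A forms were thus below all others, and the YAP 5SA libraries above all others. In order of the group means of log2(FPKM + 1), YAP 5SA was followed by MRTFB dN dPY, the Puro vector, MRTFB dN, the Hygro vector and the Y305A forms. The Puro libraries enclosed the value of MRTFB dN dPY and the Hygro libraries those of MRTFB dN, and SNAI2 passed neither for MRTFB dN (0.18, adjusted p = 0.77) nor for MRTFB dN dPY (0.81, adjusted p = 0.20) against the Hygro vector. These 4 neighbours in the order did not differ beyond their spread in the fit of all libraries. Once Puro vector replicate 1 was left out, the Puro vector was higher than both MRTFB dN and the Hygro vector, as given below.

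TWIST1 and TWIST2 encode basic helix-loop-helix factors of mesoderm and mesenchyme. TWIST1 split the libraries into a high set, with 3.79 and 3.05 FPKM in YAP 5SA and 3.68 and 3.93 in the Puro vector, and a low set of the other 10, all between 0.321 and 0.790. The Hygro vector, at 0.552 and 0.583, was in the low set, so the empty vectors lay on opposite sides. Only the 4 libraries of the high set reached 1 FPKM, so TWIST1 passed the filter through the groups where it is high. Its calls below are therefore not independent support for a difference between these groups and the others. TWIST2 varied less, from 0.482 FPKM in MRTFB dN dPY to 3.29 in MRTFB dN Y305A. It was lowest in MRTFB dN (0.595 and 0.961) and MRTFB dN dPY (0.482 and 0.604), where the highest of the 4 values lay just above the 0.955 of Hygro vector replicate 1.

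SNAI1, ZEB1 and ZEB2 were near the bottom of the scale. SNAI1, the gene of the repressor Snail, ran from 0.0390 to 0.636 FPKM and ZEB1 from 0.0828 to 0.434, below 1 FPKM in all 14 libraries. ZEB1 was at 0.434 and 0.361 in YAP 5SA and at most 0.144 in the 8 MRTFB libraries, but Hygro vector replicate 2, at 0.108, lay within the MRTFB range. ZEB2 exceeded 1 FPKM in 1 library, Puro vector replicate 1, at 1.69, with 0.522 in replicate 2 of that group and at most 0.289 elsewhere. In a fit with no filter on low values, 3 of 33 tests of these genes passed, with 9 at an unadjusted p under 0.05. The 3 were ZEB2 against the Puro vector, with log2 fold changes of -0.78 in MRTFB dN (adjusted p = 0.045), -0.96 in MRTFB dN Y305A (adjusted p = 0.039) and -1.0 in MRTFB dN Y305A/dPY (adjusted p = 0.033). In these comparisons without the filter 15.3%, 7.58% and 8.06% of all loci passed, in that order. In the Hygro vector ZEB2 was at 0.0951 and 0.0997 FPKM, below the 0.221 and 0.130 of MRTFB dN.

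VIM was at most 2.69 FPKM in the Hygro vector (0.742 and 2.69) and in YAP 5SA (1.66 and 0.987). The Puro libraries were far apart, at 1.32 and 15.3. MRTFB dN brought it to 461 and 584 FPKM and MRTFB dN dPY to 228 and 361, while the Y305A form had 11.1 and 7.19 and the Y305A/dPY form 7.11 and 1.24. The 4 libraries with SRF-binding MRTFB therefore stood above the other 10 with no overlap, while among the other 10 the MRTFB dN Y305A libraries lay above those of the Hygro vector and YAP 5SA and within the range of the Puro pair.

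FN1 was expressed in every library. It stood at 24.9 and 53.9 FPKM in the Hygro vector, 3.38 and 64.3 in the Puro vector, and 412 and 207 in YAP 5SA. MRTFB dN had 771 and 1713 FPKM and MRTFB dN dPY 543 and 1246, against 10.1 and 9.91 for the Y305A form and 9.64 and 24.8 for the Y305A/dPY form. Here YAP 5SA took the third place, below both SRF-binding forms and above every other library, which was not so for VIM.

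CDH1 was high in all libraries, from 79.3 to 341 FPKM. The lowest values were those of the Puro vector (79.3 and 94.4) and YAP 5SA (116 and 84.1). The Hygro vector had 229 and 223 FPKM, MRTFB dN 312 and 250, MRTFB dN dPY 317 and 274, the Y305A form 309 and 162, and the Y305A/dPY form 341 and 227. None of the MRTFB forms differed from the Hygro vector by the test below, so the order among these 5 groups is within their spread.

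CDH2 was lowest in the Hygro vector (0.512 and 1.98 FPKM), with the Puro vector at 0.492 and 3.06 and YAP 5SA at 4.39 and 3.21. The Y305A form had 9.25 and 7.74 FPKM and the Y305A/dPY form 9.55 and 7.64. With SRF binding the level was 30.5 and 25.4 FPKM for MRTFB dN and 23.1 and 22.9 for MRTFB dN dPY. These 3 levels, controls with YAP 5SA, Y305A forms, SRF-binding forms, did not overlap. Set against CDH1 on the FPKM scale, CDH2 made up 8.90% and 9.22% of the summed FPKM of both cadherins in the MRTFB dN libraries, and the MRTFB dN dPY libraries had 6.79% and 7.71%. The share was 2.72% to 4.55% in the Y305A forms, 3.65% and 3.68% in YAP 5SA, 0.617% and 3.14% in the Puro vector and 0.223% and 0.880% in the Hygro vector. E-cadherin mRNA was thus the larger part in each library.

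The response to hyperactive YAP was read in YAP 5SA against the Hygro vector. SNAI2 and TWIST1 were higher, whereas TWIST2 and VIM did not pass. Of the 7 genes tested 2 passed, SNAI2, higher by 1.55 ± 0.34 (adjusted p = 0.023), and TWIST1, higher by 1.49 ± 0.21 (adjusted p = 0.0027). The background in this comparison is 8.27% of all loci tested, 3.93% higher and 4.34% lower. FN1 had a log2 fold change of 2.96 ± 1.03 (adjusted p = 0.11) and CDH2 of 1.17 ± 0.43 (adjusted p = 0.13). CDH1 was at -1.19 ± 0.37 (adjusted p = 0.074), and none of these passed. VIM was at -0.14 ± 0.82, with a 95% interval from -1.94 to 1.66, and TWIST2 at 0.38 (adjusted p = 0.50). With only the YAP 5SA and Hygro libraries fitted, FN1 passed (adjusted p = 0.016). The SNAI2 call was lost without Hygro vector replicate 1 (1.27, adjusted p = 0.11) or either YAP 5SA library (1.63 and 1.46, adjusted p = 0.10 and 0.18).

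Set against the Puro vector instead, YAP 5SA differed in FN1, higher by 4.12 (adjusted p = 0.033), 1 of 7 where 9.83% of all loci passed, 5.57% higher and 4.26% lower. SNAI2 (0.77, adjusted p = 0.17) and TWIST1 (-0.13, adjusted p = 0.73) did not pass, nor did CDH1 (0.19), CDH2 (0.95), TWIST2 (0.06) or VIM (-1.42). The FN1 values of the Puro vector, 3.38 and 64.3 FPKM, both lie below those of YAP 5SA.

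The response to MRTFB freed from G-actin was read in MRTFB dN against the Puro vector. The mesenchymal markers and both cadherins were higher, and no tested transition factor was. VIM rose by 6.4 ± 0.82 (adjusted p = 0.00026), which is 84.5-fold, FN1 by 6.09 ± 1.03 (adjusted p = 0.0015), 68.1-fold, and CDH2 by 3.55 ± 0.43 (adjusted p = 0.00021), 11.7-fold. These sizes rest on the Puro libraries: without Puro vector replicate 1 they were 5.00 for VIM, 4.14 for FN1 and 2.83 for CDH2, and without Puro vector replicate 2 they were 7.81, 8.04 and 4.27, all past the threshold. CDH1 rose by 1.68 ± 0.37 (adjusted p = 0.0058), the direction opposite to that of a loss of E-cadherin. TWIST1 was lower, at -1.65 ± 0.21 (adjusted p = 0.00024), while SNAI2 (-0.60 ± 0.34, adjusted p = 0.18) and TWIST2 (-0.77 ± 0.29, adjusted p = 0.063) did not pass. These 5 of 7 stand beside a background of 36.8% of all loci, 21.8% higher and 15% lower. The CDH1 call was lost without MRTFB dN replicate 1 (1.52, adjusted p = 0.054), while without Puro vector replicate 1, which had the lower SNAI2 level of its group, SNAI2 passed as lower in MRTFB dN (-1.09, adjusted p = 0.034).

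Against the Hygro vector the mesenchymal changes stood and those of TWIST1 and CDH1 did not. VIM was higher by 7.68 (adjusted p = 8.2e-05), FN1 by 4.93 (adjusted p = 0.0066) and CDH2 by 3.76 (adjusted p = 0.00015), 3 of 7 where 19.1% of all loci passed, 12% higher and 7.09% lower. TWIST1 was at -0.03 (adjusted p = 0.94) and CDH1 at 0.31 (adjusted p = 0.63). Fibroblasts also express VIM and FN1. Of 6 fibroblast markers PDGFRA, LUM, PI16 and DPT never reached 1 FPKM, while FAP stood at 2.67 to 70.7 FPKM and DCN at 0 to 13.7. The summed level of the list was 3.70 to 10.2 FPKM in MRTFB dN and 2.73 to 8.55 in MRTFB dN dPY. It was 9.49 to 47.6 in the Puro vector, 19.0 to 33.9 in the Hygro vector and highest in YAP 5SA, at 64.6 to 71.6. The part of fibroblast RNA in the VIM and FN1 levels was not tested. In bulk RNA, a change in the share of cells and a change of RNA per cell cannot be told apart.

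The empty vectors differed from each other in the same genes. In the Puro against the Hygro vector TWIST1 was higher by 1.62 ± 0.21 (adjusted p = 0.0039) and CDH1 lower, at -1.37 ± 0.37 (adjusted p = 0.034), 2 of 7 where 14.2% of all loci passed, 5.69% higher and 8.55% lower. FN1 was at -1.16 ± 1.03, VIM at 1.28, SNAI2 at 0.78, TWIST2 at 0.31 and CDH2 at 0.21, none past the threshold. The CDH1 call was lost without either Hygro library (adjusted p = 0.081 and 0.12) or Puro vector replicate 1 (adjusted p = 0.12). SNAI2 passed without Puro vector replicate 1 (1.26, adjusted p = 0.0496), and FN1 without Puro vector replicate 2 (-3.11, adjusted p = 0.023), the library with 64.3 FPKM. With only the 4 vector libraries fitted, neither TWIST1 (adjusted p = 0.12) nor CDH1 (adjusted p = 0.20) passed, where 0.117% of all loci did.

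**Figure D2:**
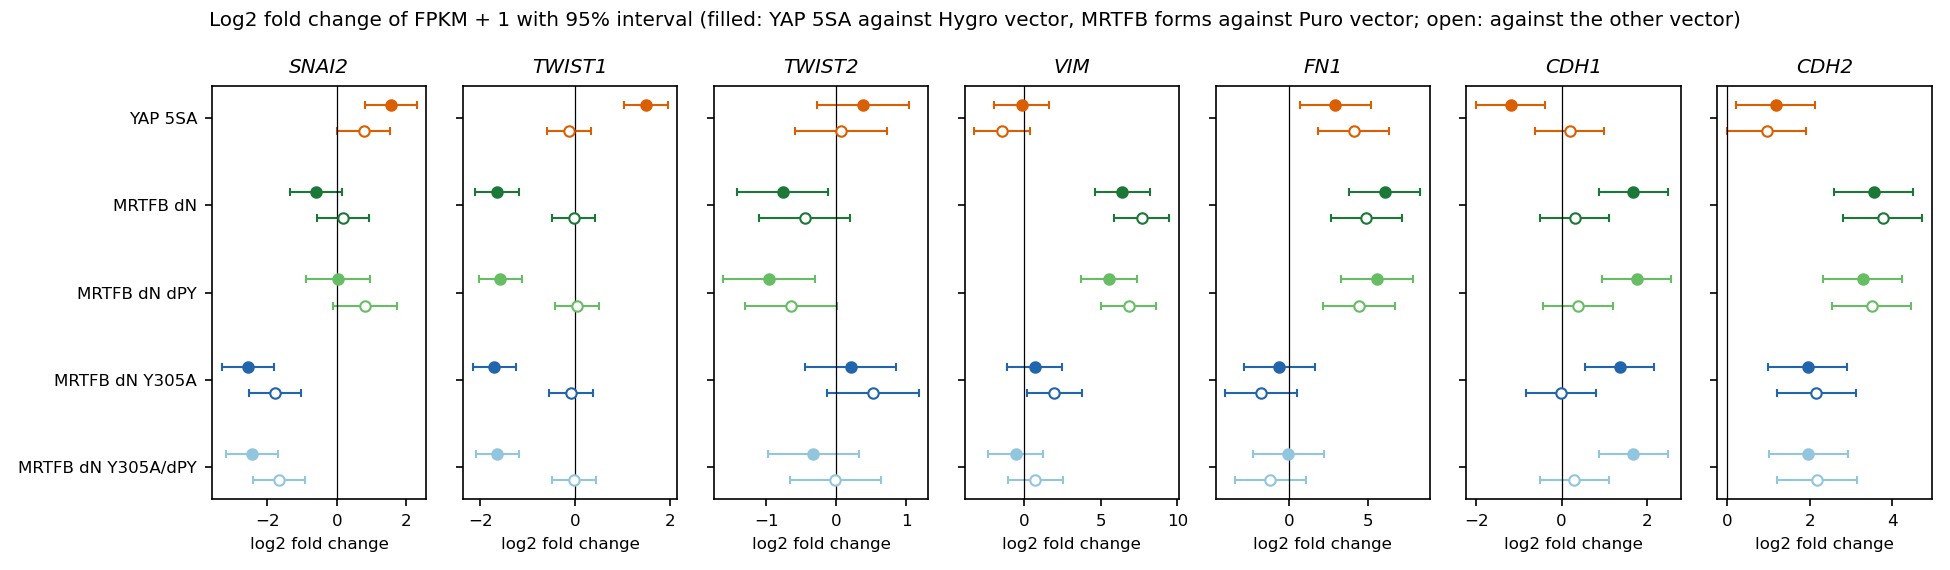
Log2 fold change of FPKM + 1 (horizontal axis, its own scale in each panel) with its 95% interval for the 7 genes tested, by construct. Filled points take the Hygro vector as control of YAP 5SA and the Puro vector as control of the MRTFB forms, open points the other vector. For VIM, FN1 and CDH2 in MRTFB dN and MRTFB dN dPY both points lie right of 0, whereas for TWIST1 and CDH1 the open points of the MRTFB forms lie near 0.

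MRTFB dN dPY, which lacks YAP binding, showed the same members past the threshold against the Puro vector as MRTFB dN, with TWIST2 added. VIM was higher by 5.55 ± 0.82 (adjusted p = 0.00067), FN1 by 5.61 ± 1.03 (adjusted p = 0.0023), CDH2 by 3.28 ± 0.43 (adjusted p = 0.00035) and CDH1 by 1.76 ± 0.37 (adjusted p = 0.0047). TWIST1 (-1.58, adjusted p = 0.00033) and TWIST2 (-0.96 ± 0.29, adjusted p = 0.027) were lower, and SNAI2, with 1 library, was at 0.03 ± 0.41. Thus 6 of 7 passed, beside 35.8% of all loci, 21% higher and 14.8% lower. Without Puro vector replicate 1 VIM was at 4.15, FN1 at 3.66 and CDH2 at 2.56, and without Puro vector replicate 2 at 6.96, 7.56 and 4.01. FN1 was at 6.20 without MRTFB dN dPY replicate 1 and 5.01 without replicate 2. The TWIST2 call was lost without Puro vector replicate 1 (adjusted p = 0.13) or either MRTFB dN dPY library (adjusted p = 0.12 and 0.070). Against the Hygro vector VIM (6.83, adjusted p = 0.00019), FN1 (4.45, adjusted p = 0.011) and CDH2 (3.50, adjusted p = 0.00025) passed, 3 of 7 where 20.6% of all loci did, 12.3% higher and 8.25% lower, and TWIST1 (0.03), TWIST2 (-0.65) and CDH1 (0.38) did not.

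The effect of losing YAP binding was also read directly, in MRTFB dN dPY against MRTFB dN. None of the 7 genes passed, and limma called 0.236% of all loci tested, while 438 loci were at an unadjusted p under 0.05. VIM was at -0.85 ± 0.82, with an interval from -2.65 to 0.95, and FN1 at -0.48 ± 1.03, from -2.75 to 1.78. SNAI2, with 1 library of MRTFB dN dPY, was at 0.63 ± 0.41, from -0.29 to 1.55. For CDH1 the interval ran from -0.73 to 0.89 and for CDH2 from -1.23 to 0.69. The VIM libraries did not overlap (461 and 584 against 228 and 361 FPKM), but that gap was within the spread estimated over all groups. These intervals still hold changes of VIM and FN1 that are not small, so they do not show that both forms act alike. Same-numbered libraries of the MRTFB forms deviated together, and in a fit of these 4 groups alone with the replicate number as a block, added after seeing the data, none of the 6 members that could be tested there passed either. The interval of VIM then ran from -2.22 to 0.52 and that of FN1 from -1.27 to 0.30.

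MRTFB dN Y305A, which cannot bind SRF, shared with MRTFB dN the lower TWIST1 and the higher CDH1 and CDH2 against the Puro vector, but not the higher VIM and FN1. VIM (0.70 ± 0.82, adjusted p = 0.55) and FN1 (-0.62 ± 1.03, adjusted p = 0.68) did not pass, and SNAI2 was lower, at -2.56 ± 0.34 (adjusted p = 0.0029). TWIST1 was lower too, at -1.71 ± 0.21 (adjusted p = 0.0016), and CDH2 (1.94 ± 0.43, adjusted p = 0.013) and CDH1 (1.36 ± 0.37, adjusted p = 0.024) were higher. These are 4 of 7 beside 25.2% of all loci, 14.2% higher and 11% lower. CDH2 and CDH1 lost their calls without Puro vector replicate 1 (1.22 and 1.24, adjusted p = 0.075 and 0.11) and without MRTFB dN Y305A replicate 1 (1.83 and 0.90, adjusted p = 0.10 and 0.22). VIM passed without Puro vector replicate 2, the library with 15.3 FPKM (2.10, adjusted p = 0.047), where CDH2 was at 2.66.

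Against the Hygro vector SNAI2 (-1.78, adjusted p = 0.024) and CDH2 (2.16, adjusted p = 0.028) passed for MRTFB dN Y305A, 2 of 7 where 2.61% of all loci did, 1.33% higher and 1.28% lower. CDH1 was at -0.01, TWIST1 at -0.09, VIM at 1.97 and FN1 at -1.78. The lower SNAI2 and the higher CDH2 of this form were therefore found against each vector.

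MRTFB dN Y305A/dPY gave values close to these. Against the Puro vector SNAI2 was at -2.43 ± 0.34 (adjusted p = 0.0030), TWIST1 at -1.64 (adjusted p = 0.0018), CDH1 at 1.68 (adjusted p = 0.011) and CDH2 at 1.96 ± 0.43 (adjusted p = 0.011), 4 of 7 beside 26.4% of all loci, 15% higher and 11.4% lower. VIM (-0.53), FN1 (-0.03) and TWIST2 (-0.33) did not pass. CDH1 and CDH2 lost their calls without Puro vector replicate 1 (1.55 and 1.23, adjusted p = 0.053 and 0.065) and without replicate 1 of this form (adjusted p = 0.11 and 0.091). Against the Hygro vector SNAI2 (-1.65, adjusted p = 0.035) and CDH2 (2.17, adjusted p = 0.029) passed, 2 of 7 where 2.67% of all loci did, 1.29% higher and 1.38% lower. Compared with MRTFB dN Y305A itself, none of the 7 genes passed in limma, where 0.0152% of all loci did, with 271 at an unadjusted p under 0.05. There VIM was at -1.23 ± 0.82, FN1 at 0.59, SNAI2 at 0.13 and CDH2 at 0.01.

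Loss of SRF binding was read directly in MRTFB dN Y305A against MRTFB dN, a comparison that uses no vector library. The mesenchymal markers, SNAI2 and N-cadherin were all lower without SRF binding, and E-cadherin was not higher by the test. VIM was at -5.70 ± 0.82 (adjusted p = 0.00067), 52.1-fold lower, and FN1 at -6.71 ± 1.03 (adjusted p = 0.0011), 104-fold lower. SNAI2 was at -1.96 ± 0.34 (adjusted p = 0.0029) and CDH2 at -1.61 ± 0.43 (adjusted p = 0.027), while TWIST2 was higher, at 0.97 ± 0.29 (adjusted p = 0.045). CDH1 was at -0.32 ± 0.37, with an interval from -1.13 to 0.49, and TWIST1 at -0.06. The 5 of 7 that passed stand beside 16.7% of all loci, 6.12% higher and 10.6% lower.

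The calls for VIM, FN1 and SNAI2 in that comparison were kept without each of its 4 libraries in turn. CDH2 lost its call in all 4 of these fits (adjusted p = 0.080 to 0.15), and TWIST2 without either MRTFB dN library (adjusted p = 0.22 and 0.098) or MRTFB dN Y305A replicate 2 (adjusted p = 0.30). The CDH2 call was also lost with a pseudocount of 0.1 (adjusted p = 0.13) and with no filter on low values (adjusted p = 0.10). That of TWIST2 was lost with no filter (adjusted p = 0.13), among other alternatives. With the block within the MRTFB groups alone both genes passed, CDH2 at an adjusted p of 0.00030 and TWIST2 of 0.0085, where 40.5% of all loci did. The introduced MKL2 was at 299.5 and 165 FPKM in MRTFB dN and at 404 and 294 in MRTFB dN Y305A. The part of the MKL2 level in these differences was not tested.

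The same loss on the form without YAP binding, MRTFB dN Y305A/dPY against MRTFB dN dPY, gave VIM at -6.08 ± 0.82 (adjusted p = 0.00043), FN1 at -5.63 ± 1.03 (adjusted p = 0.0032) and SNAI2 at -2.46 ± 0.41 (adjusted p = 0.0025), the last against 1 library. CDH2 was at -1.33 ± 0.43 (adjusted p = 0.060), CDH1 at -0.08, TWIST2 at 0.64 and TWIST1 at -0.06. Here 3 of 7 passed beside 17.4% of all loci, 6.76% higher and 10.7% lower. If the missing SNAI2 value were taken as the 0 listed for it, the SNAI2 change would be -0.81 (adjusted p = 0.56). VIM was at -7.01 without MRTFB dN Y305A/dPY replicate 1 and -5.15 without replicate 2, and FN1 ran from -6.27 to -5.00 over the fits without 1 of the 4 libraries. With the block within the MRTFB groups alone CDH2 (-1.33, adjusted p = 0.00062) and TWIST2 (0.64, adjusted p = 0.038) passed too, 5 members where 39.5% of all loci did. The MKL2 level was 286 and 171 FPKM in MRTFB dN dPY and 610 and 343 in MRTFB dN Y305A/dPY.

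**Figure D3:**
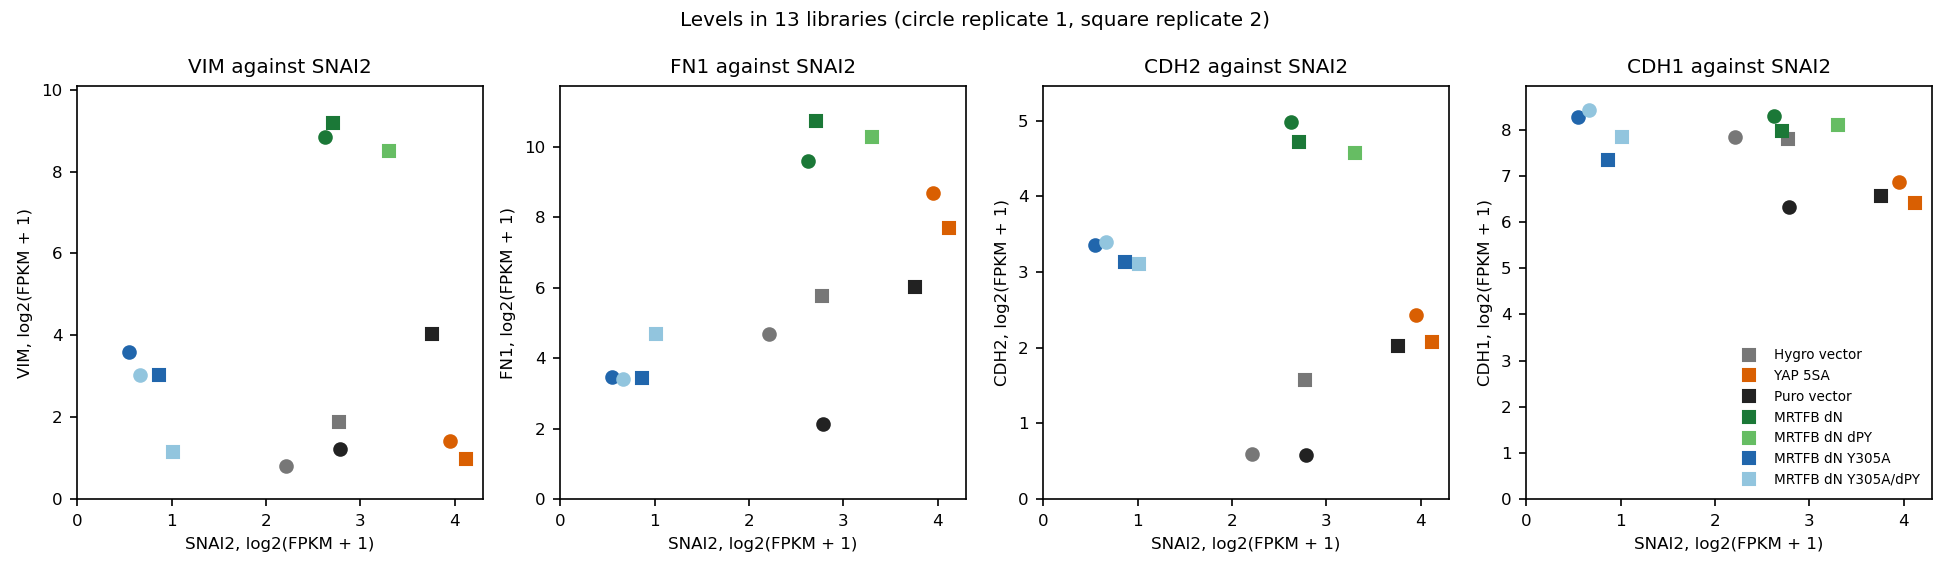
VIM, FN1, CDH2 and CDH1 against SNAI2, all as log2(FPKM + 1), in the 13 libraries with a SNAI2 value. Circles are replicate 1, squares replicate 2 and colours the groups. Libraries of nearly the same SNAI2 level, such as Hygro vector replicate 2 and MRTFB dN replicate 2, lie far apart on the VIM and FN1 axes, and the YAP 5SA libraries join the highest SNAI2 with low VIM.

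Whether transition factors moved with the markers was read library by library. SNAI2 was at 5.18 to 8.84 FPKM in the 3 readable libraries of the SRF-binding MRTFB forms, with VIM at 361 to 584. At nearly the same SNAI2 levels, 5.82 in Hygro vector replicate 2 and 5.87 in Puro vector replicate 1, VIM was at 2.69 and 1.32. The libraries with the highest SNAI2, those of YAP 5SA, had VIM at 1.66 and 0.987 and FN1 at 412 and 207. Those with the lowest SNAI2, 0.464 to 1.01 in the Y305A forms, had VIM at 1.24 to 11.1, FN1 at 9.64 to 24.8 and CDH2 at 7.64 to 9.55. High VIM was thus seen at middle SNAI2 levels, and CDH2 was above its vector levels where SNAI2 was lowest. The summed FPKM of the 6 factors was highest in YAP 5SA, at 21.8 in each library, and 6.63 and 7.94 in MRTFB dN. SNAI2 was the largest part in both groups. The empty vectors differed as well, at 14.2 and 18.9 in Puro and 5.75 and 8.99 in Hygro, which enclose MRTFB dN. The Y305A forms were lowest, at 2.43 to 5.07.

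The responses to YAP 5SA and to MRTFB dN, each against its vector, share no library, and their difference was tested in the same fit. VIM (-6.54 ± 1.15, adjusted p = 0.0031), CDH1 (-2.87 ± 0.52, adjusted p = 0.0035) and CDH2 (-2.38 ± 0.62, adjusted p = 0.017) responded less to YAP 5SA. SNAI2 (2.15 ± 0.47, adjusted p = 0.0100) and TWIST1 (3.14 ± 0.29, adjusted p = 7.6e-05) responded more. TWIST1 passed the filter only through YAP 5SA and the Puro vector, which both enter this difference. FN1 (-3.13 ± 1.45, adjusted p = 0.12) and TWIST2 (1.15, adjusted p = 0.061) did not pass. These 5 of 7 stand beside 29% of all loci, 11.1% higher and 17.9% lower, whose median difference was -0.16. With the vectors exchanged between the constructs, an alternative added after seeing the data, the differences of VIM (-9.10, adjusted p = 0.00057) and CDH2 (-2.81, adjusted p = 0.013) passed, where 13.1% of all loci did. Those of SNAI2 (0.59, adjusted p = 0.45), TWIST1 (-0.092, adjusted p = 0.87) and CDH1 (-0.12, adjusted p = 0.91) did not, so these 3 depend on which vector is taken for which construct.

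Genes of the same process outside the 10 were taken from lists: 14 other transition factors, 18 other mesenchymal markers, 22 epithelial genes that the transition represses, 8 partners of cadherin adhesion found in the table and 6 other cadherins, of which 10, 13, 21, 8 and 4 could be tested. In YAP 5SA against the Hygro vector 0 of 13 mesenchymal markers passed, with a median log2 fold change of 0.01, and 6 of 21 epithelial genes were lower, with a median of -0.94 beside -0.01 for all loci, of which 4.34% were lower. The 6 were fewer without replicate 1 of either group or replicate 2 of YAP 5SA, where the share of all loci past the threshold fell too. The tight junction claudins CLDN4 (-3.94, adjusted p = 0.0089) and CLDN7 (-2.33, adjusted p = 0.017) and the desmosome gene DSP (-1.42, adjusted p = 0.027) were among the 6. Of the adhesion partners the nectin gene PVRL1 (-2.61) and JUP, the plakoglobin gene (-1.98), were lower. Of the cadherins CDH4 (2.42) and CDH13 (1.53) were higher and CDH3, the gene of P-cadherin, lower (-1.60). Against the Puro vector 1 of the 21 epithelial genes was lower, beside 4.26% of all loci.

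In MRTFB dN against the Puro vector 5 mesenchymal markers were higher and 1 lower, with a median of 0.53 beside 0.09 for all loci, of which 21.8% were higher. The 5 of 13 became 3 without either MRTFB dN library. The higher ones included the loci of the matrix gene TNC (LOC101928748,TNC, 6.46, adjusted p = 0.00063) and of ITGA5, the fibronectin receptor subunit (ITGA5,ZNF385A, 6.06, adjusted p = 0.00026), and TGFBI (3.39, adjusted p = 0.018). The locus S100A2,S100A3,S100A4 was lower (-3.58, adjusted p = 0.013). Counts at such shared loci cannot be split between their genes. Against the Hygro vector the mesenchymal count was also 5 higher and 1 lower, beside 12% and 7.09% of all loci.

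Against the Puro vector 5 of 8 cadherin partners were higher with MRTFB dN and 0 lower, beside 21.8% higher among all loci. Their median was 1.34. The 5 became 2 with only the compared groups fitted, where 22% of all loci passed in either direction, against 36.8% in the main fit. They were also fewer without Puro vector replicate 1 or MRTFB dN replicate 1. VCL, the gene of vinculin, rose by 3.81 (adjusted p = 2.9e-05) and CTNNA1, the gene of alpha-catenin, by 2.91 (adjusted p = 0.00023). The cadherins CDH13 (2.99) and CDH3 (1.79) were higher as well. Against the Hygro vector 2 of 8 partners and 2 of 4 cadherins were higher. Of the epithelial list 5 of 21 were higher and 1 lower against the Puro vector, a share near the 21.8% of all loci, and the 5 became 3 without either MRTFB dN library and 1 with only the compared groups fitted. With the Hygro vector as control 2 were higher and 7 lower, beside 12% and 7.09% of all loci. The other transition factors were split, with SOX9 (3.64) and FOXC1 (1.73) higher and 3 lower, HMGA2 among them (-3.34), against the Puro vector, and 0 higher and 1 lower against the Hygro vector.

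Without SRF binding, in MRTFB dN Y305A against MRTFB dN, 6 of 13 mesenchymal markers were lower and 1 higher, with a median of -1.38 beside 0.03 for all loci, of which 10.6% were lower and 6.12% higher. The 6 were fewer without MRTFB dN replicate 2, as were all loci past the threshold. TNC (-5.75, adjusted p = 0.0015), ITGA5 (-4.86, adjusted p = 0.0013) and TGFBI (-3.93, adjusted p = 0.015) were lower, at the loci named above, and the S100A4 locus was the 1 higher (4.62, adjusted p = 0.0055). Of 21 epithelial genes 4 were higher, among them CLDN4 (3.55, adjusted p = 0.0056), CLDN7 (2.35, adjusted p = 0.0070) and OCLN, the gene of occludin (1.74, adjusted p = 0.0031), and 1 lower, DSP (-1.82). The 4 were fewer without MRTFB dN replicate 2 or MRTFB dN Y305A replicate 1, where the share of all loci past the threshold fell too. VCL was lower among the adhesion partners (-2.38, adjusted p = 0.00088). CDH1 itself, as above, did not pass. In MRTFB dN Y305A/dPY against MRTFB dN dPY 5 mesenchymal markers were lower and 1 higher, and 6 epithelial genes higher and 1 lower, beside 10.7% lower and 6.76% higher among all loci. These 5 and these 6 were fewer without MRTFB dN dPY replicate 2, where the share of all loci past the threshold fell too. The 5 were also fewer without MRTFB dN Y305A/dPY replicate 1.

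Against the Puro vector the Y305A forms had more epithelial genes higher, 9 of 21 in MRTFB dN Y305A and 10 of 21 in MRTFB dN Y305A/dPY, with 0 lower in each, beside 14.2% and 15% higher among all loci. These counts rest on single libraries: each was 0 without replicate 1 of the form itself, where only 1.01% and 2.83% of all loci passed in either direction. Each count was also lower without Puro vector replicate 1, as was the share of all loci past the threshold. Against the Hygro vector each was 1, beside 1.33% and 1.29% higher among all loci. Between the vectors, 7 of 21 epithelial genes and 3 of 8 adhesion partners were lower in Puro than in Hygro, with medians of -1.18 and -1.02 beside -0.07 for all loci, of which 8.55% were lower. With only the vectors fitted both counts were 0, where 0.117% of all loci passed in either direction. Both counts were also lower without Hygro vector replicate 2 or Puro vector replicate 1, as was the share of all loci past the threshold.

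**Figure D4:**
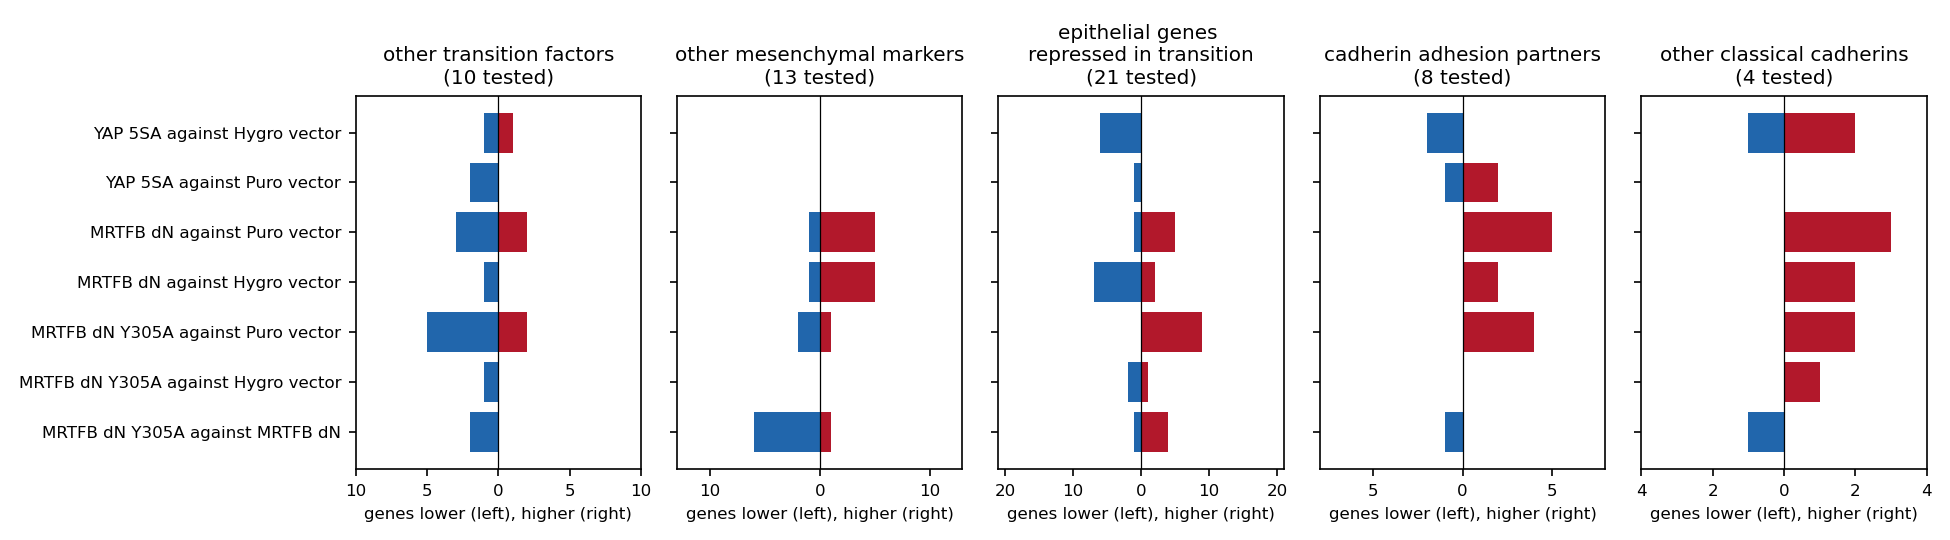
Number of genes past the threshold in 5 lists, lower to the left in blue and higher to the right in red, by comparison. The width of each panel is the number of genes tested in that list. Against the Puro vector 5 epithelial genes are higher in MRTFB dN and 9 in MRTFB dN Y305A, beside 21.8% and 14.2% of all loci. Against the Hygro vector 2 and 1 are higher, beside 12% and 1.33% of all loci. There 7 are lower in MRTFB dN, beside 7.09%. The count of higher mesenchymal markers in MRTFB dN is 5 against each vector, beside 21.8% (Puro) and 12% (Hygro) of all loci.

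For the members with a mean of 3 FPKM or more, the loci with the most similar pattern were sought among 8770 loci of a single gene, by the mean absolute difference of centred log2(FPKM + 1) over the libraries. For VIM these were MCAM (0.61), BMP2 (0.71) and HSD17B6 (0.80), over 14 libraries, where VIM itself deviates from its mean by 2.65. For FN1 they were INHBA (0.58), HEG1 (0.64) and ADAMTS1 (0.82), where FN1 deviates by 2.52. For SNAI2, over 13 libraries, they were GAS6 (0.41), IRX2 (0.46) and LINC01322 (0.48), where SNAI2 deviates by 1.04. CDH1 was closest to BCR (0.16), TMEM127 (0.17) and UBE2H (0.17, over 13 libraries), with an own deviation of 0.64. CDH2 was closest to WDR66 (0.31), ULBP2 (0.40) and ADM (0.45), with an own deviation of 1.19. VIM and FN1, though both highest in MRTFB dN, were not among each other's 3 closest loci.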

How the data were processed

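The authors deposited a single table of FPKM values for 34071 loci. The submitters' processing notes name Bowtie, TopHat, Cufflinks, Cuffnorm and the genome build hg19, per the labels. Libraries were poly(A)-selected and strand-specific, per the labels' protocols. Tool versions, annotation and scaling between libraries are not given in the sources used here. Since FPKM are not counts, log2(FPKM + 1) was tested with limma 3.58.1 under R 4.3.3 in a two-sided test with 7 group means and an intensity trend. The 14 libraries entered a common fit, with Benjamini-Hochberg adjustment over 13137 loci and a threshold of 0.05. The fit has 7 residual degrees of freedom (6 where a value is missing) and a prior of 3.77. Other steps used pandas 2.3.3 and numpy 2.4.6 under Python 3.11.15. A pseudocount of 1 understates changes of low genes such as TWIST1. The 5257 empty loci of MRTFB dN dPY replicate 1 were treated as missing and other zeros as values. No libraries were identical.

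The members, lists, comparisons and tests were chosen with earlier results of these data known, so a p-value here is not independent support. Named were all 10 members, the introduced genes, up to 3 genes in each direction of a list that passed with the largest changes (mean level 3 FPKM or higher), and the 3 loci most like each member of that mean level. Of the genes under this rule only some are given. The GC box and the cyclic AMP response element were added to the motifs after the sequences were seen. The PVRL symbols are the older names of the nectin genes, and 3 newer synonyms in the adhesion list matched no locus. Simulated data with known changes were used to test the fit. Alternatives were a pseudocount of 0.1, no filter, median of ratios scaling, only the groups compared, no trend, the replicate block, the other vector, kept zeros, isolated zeros as missing, summed loci of 1 name, and each library left out in turn. A block within the MRTFB groups alone and exchanged vectors were added after seeing the data.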

Additional observations from a re-analysis of the deposited data

Results flagged for a closer look

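Responses to YAP 5SA (Hygro vector as control) and MRTFB dN (Puro vector as control) were compared by a test of their difference in limma. They differed for 5 of the 7 genes tested, beside 29% of all loci, 11.1% higher and 17.9% lower. For SNAI2 the YAP 5SA response minus the MRTFB dN response was 2.15 on the log2 scale (1.55 against -0.60). For TWIST1 the difference was 3.14 (1.49 against -1.65). TWIST1 passed the filter only through the YAP 5SA and Puro libraries, so its call is not independent support. For the other genes the difference is given in the same way. It was -6.54 for VIM (-0.14 against 6.4), -2.87 for CDH1 (-1.19 against 1.68) and -2.38 for CDH2 (1.17 against 3.55). The CDH2 difference lost its call with a pseudocount of 0.1 (-2.58, adjusted p = 0.072) and with no filter on low values (adjusted p = 0.063). It also lost its call without Hygro vector replicate 2 (-1.89), YAP 5SA replicate 2 (-2.21) or MRTFB dN replicate 1 (-2.26). With the vectors exchanged the differences were 0.59 for SNAI2, -0.092 for TWIST1 and -0.12 for CDH1 (adjusted p = 0.45, 0.87 and 0.91), so their calls depend on the vector taken for each construct, which the labels do not name, while VIM (-9.10) and CDH2 (-2.81) passed. Without Puro vector replicate 1 the VIM difference was -5.14 and that of CDH2 -1.66, and without Puro vector replicate 2 they were -7.95 and -3.11, all past the threshold. The FN1 difference passed without Puro vector replicate 2 (-5.08, adjusted p = 0.0046). With 2 libraries in a group, single libraries were not tested as outliers.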

How the results depend on the processing

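With the other vector as control, 1 member passed the threshold in YAP 5SA and 3 each in MRTFB dN and MRTFB dN dPY. Each Y305A form had 2. Of all loci 9.83% passed in YAP 5SA, 19.1% in MRTFB dN and 20.6% in MRTFB dN dPY. The shares were 2.61% in MRTFB dN Y305A and 2.67% in MRTFB dN Y305A/dPY. Signs turned for TWIST1 in YAP 5SA (-0.13) and MRTFB dN dPY (0.035) and for CDH1 in MRTFB dN Y305A (-0.014). With no filter the count was 1 in YAP 5SA against the Hygro vector, 3 in MRTFB dN Y305A against MRTFB dN and 1 between the vectors. Of all loci 2.56%, 7.09% and 3.72% passed there. Fitted on the compared groups alone the count was 2 in MRTFB dN Y305A against the Puro vector and 0 between the vectors. Of all loci 5.64% and 0.117% passed in these fits. With zeros of the empty part kept the count was 1 in YAP 5SA, where 5.51% of all loci passed, against 8.27% in the main fit. It was 3 in MRTFB dN Y305A against MRTFB dN. Leaving out 1 library, which assumes that the lone sample varies like the other groups, gave 1 to 2 in YAP 5SA, 4 to 6 in MRTFB dN, 5 to 6 in MRTFB dN dPY, 2 to 5 in MRTFB dN Y305A and 2 to 4 in MRTFB dN Y305A/dPY. The range was 3 to 4 for MRTFB dN Y305A against MRTFB dN, 2 to 3 for the same loss without YAP binding, 1 to 3 between the vectors and 4 to 7 for the difference of responses, and 0 to 0 for each loss of YAP binding. Among values of single genes in these fits 28 lost and 8 gained a call, and 297 did neither. VIM and FN1 kept their calls in MRTFB dN and MRTFB dN dPY against the Puro vector and in both losses of SRF binding under each alternative run. Kept zeros also ended SNAI2 calls: in MRTFB dN Y305A the adjusted p was 0.056 against the Puro vector and 0.17 against MRTFB dN. No value of SNAI2 could be had without MRTFB dN dPY replicate 2. The replicate numbers do not pair the samples over all groups (7 of 21 group pairs have a correlation of deviations over 0.1, from -0.15 to 0.64), though the 6 pairs of MRTFB groups lie between 0.32 and 0.64 as a hint from the data. A replicate block within the MRTFB groups alone was added after seeing the data. It gave 5 members in MRTFB dN Y305A/dPY against MRTFB dN dPY, where 39.5% of all loci passed. The other 3 comparisons between MRTFB forms kept their counts. Exchanged vectors, added likewise, left 2 members in the difference of responses, where 13.1% of all loci passed, and turned TWIST1 to -0.092. Over all groups the replicate block changed 0 of 77 calls, with 2 members past the threshold in YAP 5SA and 5 in MRTFB dN. Median of ratios scaling moved the median of all loci by at most 0.08 on the log2 scale. FPKM give no counts, so no counting error can be given for the low values of SNAI1, ZEB1 and ZEB2.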
